A study of Mus musculus with 6 samples.

Results

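Club and secretory airway cell genes encode the proteins that the lining of the conducting airways secretes and the enzymes by which its club cells handle foreign chemicals. Members were all probe sets whose single gene symbol in the platform annotation was Scgb1a1, Scgb3a1, Scgb3a2, Cyp2f2, Muc5b, Muc5ac, Reg3g, Bpifa1, Bpifb1 or Aldh1a1. These 10 genes were read by 11 of 45101 probe sets, 1 each and 2 for Bpifb1. Expression was measured in whole right lung homogenate of 6 female FVB/N mice, with 1 Affymetrix array per mouse and 2 mice per group. The R899X high RVSP and R899X normal RVSP mice were heterozygous for SM22-rtTA and TetO7-BMPR2-R899X, transgenes that together express a mutant receptor for bone morphogenetic proteins under doxycycline, and they differed in whether right ventricular systolic pressure (RVSP) was substantially elevated or near normal at death. Control mice carried SM22-rtTA without the BMPR2-R899X transgene. Doxycycline was given to every group, beginning at 4 weeks old and lasting 9 weeks, and death was at 13 weeks. The sex of control 1 comes from the description of the whole series, since the label of that mouse leaves it out. The SM22 promoter is a smooth muscle promoter, so the transgene is not driven from an airway epithelial promoter. Mice are numbered 1 and 2 within a group only to name them.

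Club cells are the dome-shaped, non-ciliated cells of the mouse bronchioles. They release secretoglobins, small secreted proteins of which Scgb1a1 is the best known, and they carry cytochrome P450 enzymes that activate inhaled toxicants. Mucins, the gel-forming glycoproteins of airway mucus, and the BPI-fold proteins Bpifa1 and Bpifb1 are products of secretory cells and glands, mostly in the larger airways. Goblet and serous cells are among these secretory cells. Aldh1a1, which oxidises retinaldehyde, and Reg3g, an antibacterial lectin, are made by other epithelia as well. Muc5ac and Muc5b are neighbours in the genome with 0 protein-coding genes between them in the RefSeq gene table of GRCm38.p6, and Bpifa1 and Bpifb1 have 1 gene, Bpifa5, between them.

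The deposited values are intensities on a linear scale, and an intensity depends on the probes as well as on the transcript, so levels are compared between arrays and not between genes. Of the 11 member probe sets 6 passed a filter that set aside the dimmest 40% of probe sets (mean intensity under about 74.9). They read Scgb1a1, Scgb3a1, Scgb3a2, Cyp2f2, Muc5b and Aldh1a1. The other 5 probe sets, of Muc5ac, Reg3g, Bpifa1 and Bpifb1, were dim, and their values are only described here. Differences were tested on log2(intensity + 16) with limma over all 27022 probe sets past the filter, and each ± in what follows is the standard error of a log2 difference. In whole lung, fewer secretory cells and less RNA per cell cannot be told apart.

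Across the 6 lungs Scgb3a2, Cyp2f2 and Aldh1a1 varied little between mice of a group, Muc5b and Scgb3a1 varied widely, and Scgb1a1 lay between. Promoter sequence of 6 of the 10 genes was found in the RefSeq table of build GRCm38.p6. The 250 bases before the start are shown for Scgb3a1, as a gene that varied widely between mice, and for Cyp2f2, as a gene that varied little. Capitals mark matches on either strand to any of TNTTTAC, a core of FOXA sites, CTCAAG, a core of NKX2-1 sites, CCGGAAGT, a core of ETS family sites, or the TATA box core TATAAA. These letters were found in 10.9%, 13.3%, 2.88% and 12.4% of 32851 promoter windows of the same length.
Scgb3a1 (chr11:49663345-49663594, plus strand): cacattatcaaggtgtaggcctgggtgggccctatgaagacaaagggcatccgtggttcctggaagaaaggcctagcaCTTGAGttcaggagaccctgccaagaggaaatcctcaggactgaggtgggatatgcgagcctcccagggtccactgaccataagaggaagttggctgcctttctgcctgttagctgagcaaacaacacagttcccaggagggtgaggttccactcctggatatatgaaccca
Cyp2f2 (chr7:27119705-27119954, plus strand): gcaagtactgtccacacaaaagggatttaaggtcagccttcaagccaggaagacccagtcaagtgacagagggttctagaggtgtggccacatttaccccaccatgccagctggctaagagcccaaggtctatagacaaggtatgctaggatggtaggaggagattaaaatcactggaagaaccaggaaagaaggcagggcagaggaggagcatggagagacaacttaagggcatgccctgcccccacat
The Scgb3a1 window held 1 match, CTTGAG, the reverse complement of the NKX2-1 core, from 172 to 167 bases before the start. The Cyp2f2 window held none of these letters, which says nothing of the factors. No binding was measured here.

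Scgb1a1, the main secretoglobin of club cells, had intensities of 38527 and 36356 in R899X high RVSP lungs, 42184 and 39067 in R899X normal RVSP lungs, and 51443 and 33258 in control lungs. The control mice held both the highest and the lowest value, so every R899X mouse lay between them. The log2 difference was -0.14 ± 0.21 for R899X high RVSP against control (limma adjusted p = 0.951) and -0.03 ± 0.21 for R899X normal RVSP against control (limma adjusted p = 0.997). The 95% interval of R899X high RVSP over control ran from 0.643-fold to 1.27-fold. Scgb1a1 was the brightest probe set of the whole array on control 1, R899X normal RVSP 1, R899X normal RVSP 2 and R899X high RVSP 2. Bright probe sets in general stood high on control 1, where the median of the 100 brightest was 28220, against 21250 to 25930 on the other arrays. After quantile normalization, which removes that difference, Scgb1a1 took 38809 and 40473 in R899X high RVSP lungs, 40473 in both R899X normal RVSP lungs, and 40473 and 38809 in control lungs. Its rank was 1 or 2 on every array, so quantile normalization could give it only these values, and a difference computed from them carries its rank and not its level. Whether a probe set this bright still responds in proportion to its transcript was not tested.

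Scgb3a2, a secretoglobin of club cells and of the developing airway, was the 1 member whose 4 R899X values all lay above both controls. It had intensities of 20777 and 18202 in R899X high RVSP lungs, 21603 and 19881 in R899X normal RVSP lungs, and 17106 and 15198 in control lungs. The log2 difference was 0.27 ± 0.15 for R899X high RVSP against control, 0.36 ± 0.15 for R899X normal RVSP against control. For all R899X against control it was 0.32 ± 0.13. This is 1.25-fold, with a 95% interval from 1.01-fold to 1.54-fold, an unadjusted p = 0.0458 and an adjusted p = 0.832 in limma over all probe sets, so it did not pass. Of all tested probe sets 7.52% had every R899X value above both controls. After quantile normalization the 4 R899X values, 19276 to 20596, again lay above the controls at 15659 and 16685. Between the R899X groups the difference was -0.09 ± 0.15.

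Cyp2f2, the cytochrome P450 that activates naphthalene in mouse club cells, had intensities of 22846 and 20521 in R899X high RVSP lungs, 25836 and 21394 in R899X normal RVSP lungs, and 21350 and 20541 in control lungs. R899X normal RVSP 1 was the highest and the other 5 mice lay close together. The log2 difference was 0.05 ± 0.16 for R899X high RVSP against control and 0.17 ± 0.16 for R899X normal RVSP against control, with 95% intervals from 0.801-fold to 1.33-fold and from 0.870-fold to 1.45-fold. Aldh1a1 varied least, with 19563 and 18869 in R899X high RVSP lungs, 22109 and 20272 in R899X normal RVSP lungs, and 21411 and 19943 in control lungs. Both R899X high RVSP mice lay below the other 4, with a log2 difference of -0.10 ± 0.14 from control and -0.14 ± 0.14 from R899X normal RVSP (limma adjusted p = 0.946 and 1.0). The highest Aldh1a1 value was 1.17 times the lowest. The order against control rests on the scaling. After quantile normalization the lowest Aldh1a1 value was 18744 in control 1 and the highest 22794 in control 2. Both R899X high RVSP mice, at 19356 and 20070, still lay below both R899X normal RVSP mice, at 20744 and 20922. The close paralog Aldh1a7 was read by its own probe set, and whether either probe set also detects the other transcript was not tested.

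**Figure D1:**
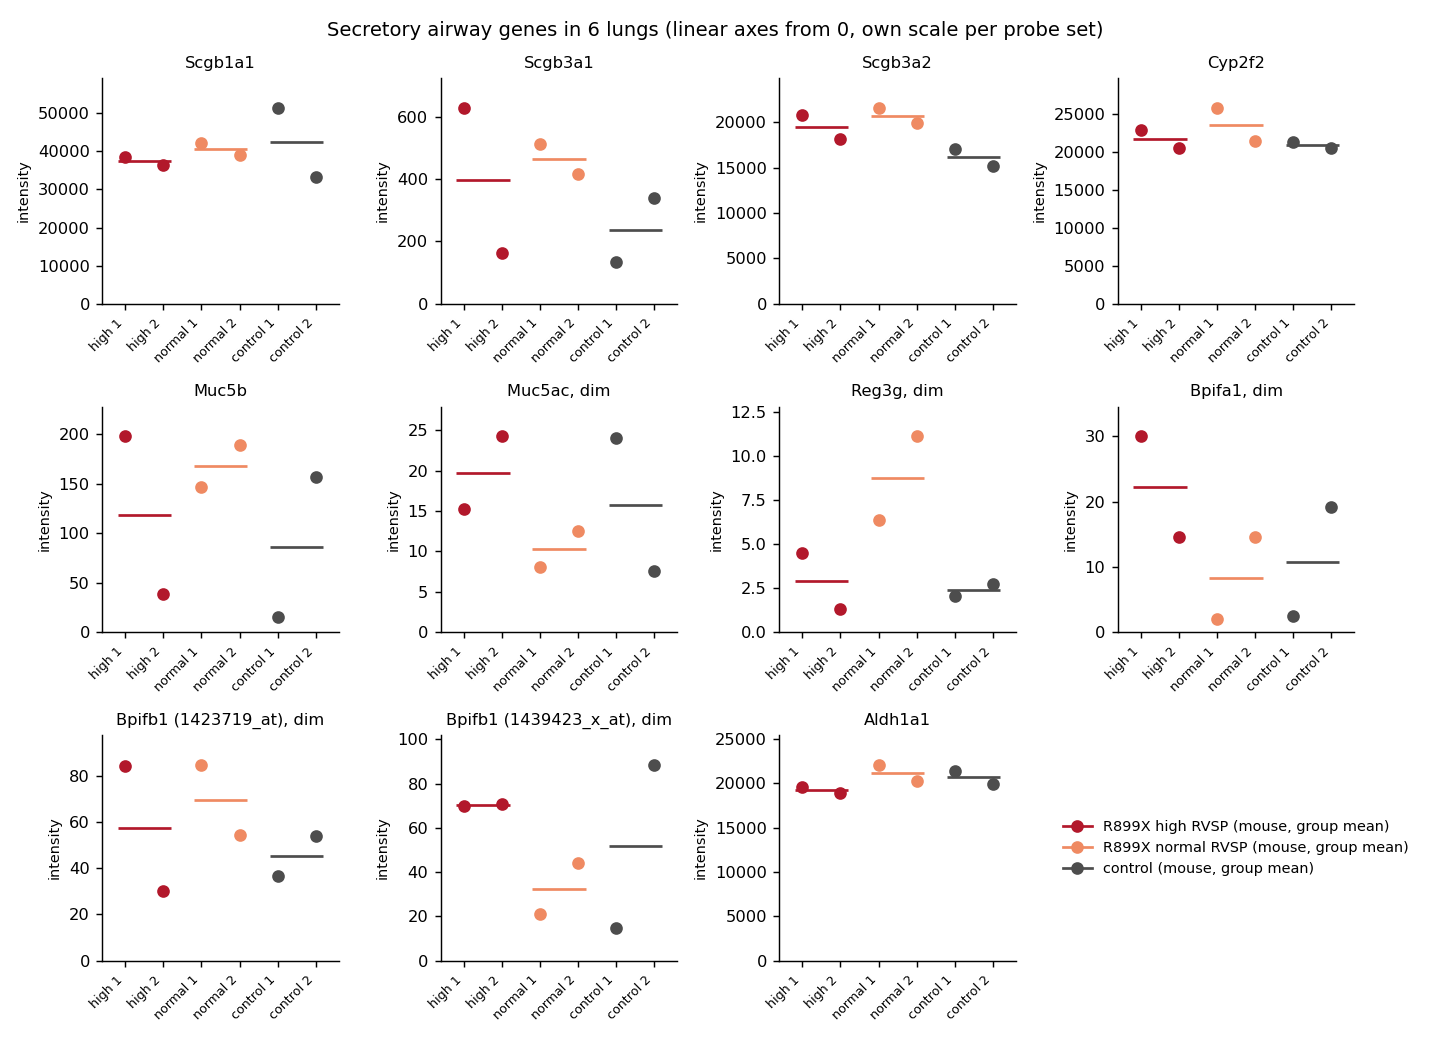
Intensity (linear axes from 0, a scale of its own for each panel) of the 11 member probe sets in each of the 6 mice, coloured by group, with a bar at the mean of 2 mice; "dim" marks the 5 probe sets below the filter. Scgb3a2 lies above both controls in all 4 R899X mice, while Muc5b and Scgb3a1 are low in R899X high RVSP 2 and control 1.

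Muc5b, the mucin made in normal mouse airways, was the most variable tested member. It had intensities of 198 and 38.7 in R899X high RVSP lungs, 147 and 189 in R899X normal RVSP lungs, and 15.6 and 157 in control lungs. A low mouse stood beside a high mouse in both the R899X high RVSP and the control group, and no fold is given between them because both low values lay under the filter's intensity. The log2 difference was 0.55 ± 0.83 for R899X high RVSP against control, 1.30 ± 0.83 for R899X normal RVSP against control and -0.76 ± 0.83 between the R899X groups (limma adjusted p = 0.953, 0.987 and 1.0). Their size depended on the 16 added before taking log2. With 1 added they were 0.79, 1.71 and -0.91, and with 64 added 0.31, 0.80 and -0.49. Without control 1 these differences from control were -0.68 and 0.077. Without R899X high RVSP 2 the difference between the R899X groups was 0.23.

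Scgb3a1, a secretoglobin of larger airways, was low on the same arrays as Muc5b. It had intensities of 629 and 164 in R899X high RVSP lungs, 513 and 417 in R899X normal RVSP lungs, and 133 and 339 in control lungs. Both R899X normal RVSP mice lay above both controls, and the R899X high RVSP mice held the highest value and the second lowest. The log2 difference was 0.57 ± 0.59 for R899X high RVSP against control and 1.06 ± 0.59 for R899X normal RVSP against control (limma adjusted p = 0.922 and 0.987). The second of these is 2.08-fold with a 95% interval from 0.810-fold to 5.35-fold. Without control 1 the differences were -0.06 and 0.43, and without R899X high RVSP 2 the difference between the R899X groups, -0.49 with all arrays, was 0.43. The spread between mice of 1 group, as the SD of log2 values, was larger for Scgb3a1 than for 99.0% of tested probe sets and larger for Muc5b than for 99.9%. The same figure was 61.8% for Scgb1a1, 15.2% for Scgb3a2, 19.4% for Cyp2f2 and 4.33% for Aldh1a1. These shares are over tested probe sets of every intensity. Muc5b and Scgb3a1 were brighter than 44.6% and 65.7% of probe sets, and Scgb1a1, Scgb3a2, Cyp2f2 and Aldh1a1 than at least 99.7%. The part of intensity in this contrast was not tested.

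The genes with profiles most like that of Muc5b over the 6 arrays were Rhbdd3, Zbtb16, Scgb3a1, Lyz1 and Calcrl, measured as the root mean square difference of log2 values centred on their own mean, which ran from 0.381 to 0.504 against a median of 1.08 over all tested probe sets. Another member, Scgb3a1, was thus among the 5, at 0.408. The Lyz1 probe set, for a lysozyme of the mouse, stood at 0.463, with 247 and 51.6 in R899X high RVSP lungs, 305 and 205 in R899X normal RVSP lungs, and 69.97 and 226 in control lungs. It was low in the same mice as Muc5b. The other 2 Lyz1 probe sets lay between 26751 and 40365 on all arrays and were highest on control 1. Both have an x in their identifier and may also detect other transcripts. The probe sets listed for that gene thus disagree, and which of them follows Lyz1 was not tested. For Scgb1a1 the nearest genes were Klf9, Gnl2, Rps28, Tmsb10 and Mycbp2, at 0.025 to 0.039 against a median of 0.281. None of these is a member, and all were highest on control 1 and lowest on control 2, as Scgb1a1 was.

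**Figure D2:**
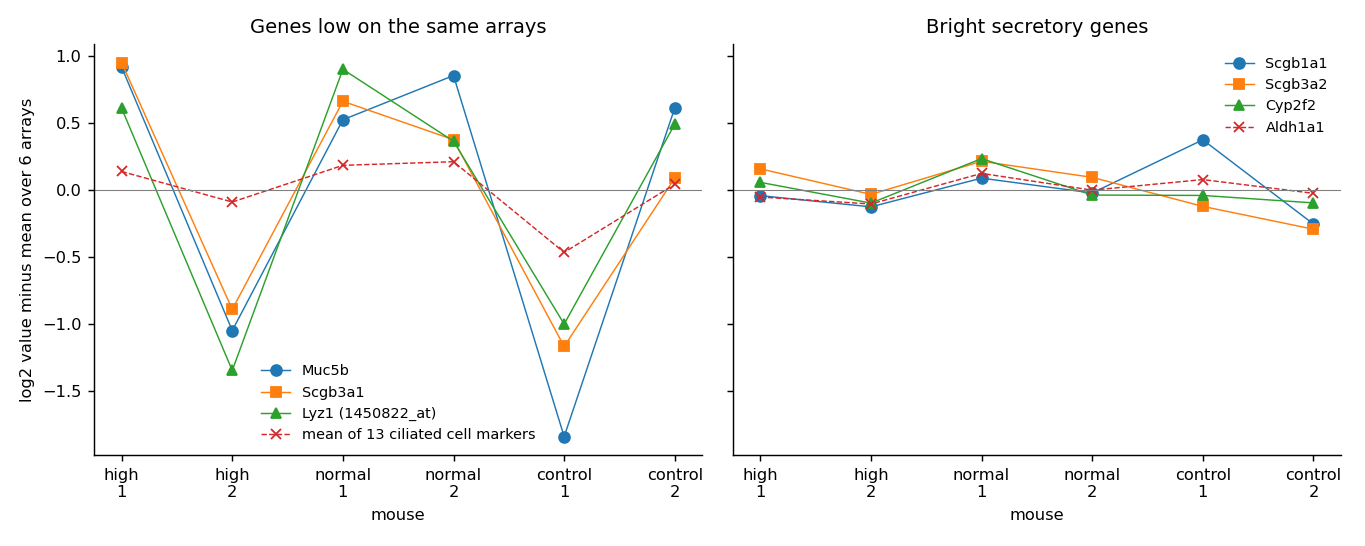
Log2(intensity + 16) minus its mean over the 6 arrays, by mouse, with lines only to guide the eye. Left, Muc5b, Scgb3a1, Lyz1 (the probe set named in the legend) and the mean of 13 ciliated cell markers. All of these were below their means in R899X high RVSP 2 and control 1, as were Scgb3a2 and Cyp2f2 on the right. Right, Scgb1a1, Scgb3a2, Cyp2f2 and Aldh1a1, with log2 ranges of 0.63, 0.51, 0.33 and 0.23. The range was 2.76 for Muc5b and 2.12 for Scgb3a1. The ciliated mean, from -0.47 to 0.21, ranged about as little as Scgb1a1. Smooth muscle and endothelial markers, not drawn, were also below their means on average in R899X high RVSP 2 and control 1.

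The remaining members were dim, and their values are given as a description. Muc5ac, the mucin that goblet cells make in inflamed airways, read 15.2 and 24.3 in R899X high RVSP lungs, 8.01 and 12.5 in R899X normal RVSP lungs, and 24.0 and 7.53 in control lungs. Reg3g did not exceed 11.1 on any array. Bpifa1, a secreted defence protein of the upper airway, read 30.0 and 14.6 in R899X high RVSP lungs, 2.08 and 14.6 in R899X normal RVSP lungs, and 2.50 and 19.1 in control lungs. The groups of Bpifa1 overlap. For Muc5ac both R899X high RVSP mice lay above both R899X normal RVSP mice, and the controls overlapped both groups. For Reg3g both R899X normal RVSP mice, at 6.34 and 11.1, lay above the others at 1.33 to 4.51. The probe sets of Bpifb1, a related secreted protein, disagreed with each other. The one whose identifier has no x read 84.4 and 30.2 in R899X high RVSP lungs, 84.9 and 54.4 in R899X normal RVSP lungs, and 36.6 and 54.1 in control lungs. The other, an x probe set that may also detect other transcripts, read 69.7 and 70.7 in R899X high RVSP lungs, 21.0 and 43.9 in R899X normal RVSP lungs, and 14.9 and 88.5 in control lungs. By the first probe set both R899X normal RVSP mice lay above both controls, by a narrow margin, and by the other both R899X high RVSP mice lay above both R899X normal RVSP mice.

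None of the 6 tested members passed in any comparison. For R899X high RVSP against control, limma called 0 of 27022 probe sets, 0.0%, at an adjusted p under 0.05, while 1527 had an unadjusted p under 0.05. Of the members 4 had a positive and 2 a negative difference, and 0 had an unadjusted p under 0.05. The difference was positive for 49.3% of all tested probe sets. Arrays did not overlap for 1 member that was higher, Scgb3a2, and 1 that was lower, Aldh1a1, against backgrounds of 19.1% and 18.2% of tested probe sets. Over the 6 tested members the median difference was 0.16, against -0.0042 over all tested probe sets. Over all 11 member probe sets, 5 of them dim, it was 0.21, the value of dim Muc5ac, against -0.02 over all probe sets. Without R899X high RVSP 1, R899X high RVSP 2 or control 1 it was -0.085, 0.37 or 0.0095.

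For R899X normal RVSP against control, limma called 0.0% of probe sets, and 1174 had an unadjusted p under 0.05. Scgb3a2 was among them, with limma's unadjusted p = 0.0472 and adjusted p = 0.987. Positive differences were found for 49.9% of all tested probe sets and for 5 of the 6 members, all but Scgb1a1, whose sign turned with aligned medians. Arrays did not overlap for 3 members that were higher, Scgb3a1, Scgb3a2 and Cyp2f2, against a background of 14.4%, and for 0 that were lower, against 15.1%. For Cyp2f2 the margin was narrow, 21394 against 21350. After quantile normalization Cyp2f2 overlapped, with 21870 in R899X normal RVSP 2 and 23414 in control 2. Over the 6 tested members the median was 0.26, against -0.00086 over all tested probe sets. The median over the 11 probe sets was 0.17, against -0.03 over all probe sets. It was 0.35 without control 2.

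For R899X high RVSP against R899X normal RVSP, a comparison within transgenic mice by pressure, limma called 0.0% of probe sets and 707 had an unadjusted p under 0.05. All 6 tested members had a negative difference, from -0.09 for Scgb3a2 to -0.76 for Muc5b, and 0 had an unadjusted p under 0.05. A positive difference was found for 51.7% of all tested probe sets. Without R899X high RVSP 2 the difference was 0.43 for Scgb3a1, 0.0037 for Scgb3a2 and 0.23 for Muc5b. Without R899X normal RVSP 1 it was 0.017 for Cyp2f2. Arrays did not overlap for 2 members that were lower, Scgb1a1 and Aldh1a1, against a background of 15.5%, and for 0 that were higher, against 16.7%. Over the 6 tested members the median was -0.13, against 0.0081 over all tested probe sets. The median over the 11 probe sets was -0.12, against 0.02 over all probe sets, and without R899X high RVSP 2 it was 0.23. For all R899X against control, limma called 0.0% of probe sets and 1601 had an unadjusted p under 0.05. The median was 0.21 over the 6 tested members, against -0.00205 over all tested probe sets. Over the 11 it was 0.22, the value of dim Bpifa1, against -0.02 over all probe sets. The ordinary linear model without shared variance also called 0 probe sets in each of these 4 comparisons. The R899X groups are set against the same 2 controls, so the comparisons with control are not independent. No exact permutation test was run, because its smallest possible p is 0.333 for 2 arrays against 2 and 0.0667 for 4 against 2.

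**Figure D3:**
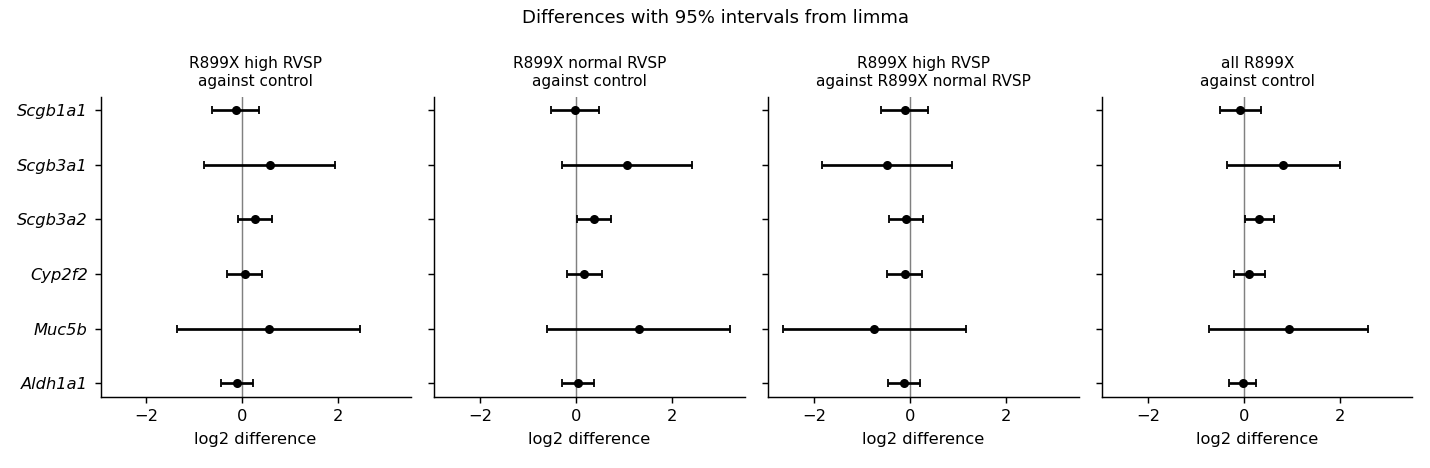
Log2 difference (points) with its 95% interval from limma (bars) for the 6 tested members, a panel for each comparison, positive where the group named first is higher. The interval includes 0 in every case but Scgb3a2, where before any adjustment over probe sets it starts at 0.0057 (R899X normal RVSP against control) and 0.0075 (all R899X against control).

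Other genes of the conducting airway were read from lists, each gene by its brightest probe set. Of 17 tested genes of club cells, among them detoxifying enzymes, 0 passed in any comparison. In R899X high RVSP against control 9 were higher and 8 lower, with a median of 0.00065. In limma 1527 of all 27022 tested probe sets had an unadjusted p under 0.05, and of these club genes 1. This was Gabrp, a GABA receptor subunit of epithelia, with 1077 and 1075 in R899X high RVSP lungs and 607 and 729 in control lungs, a difference of 0.68 ± 0.27 (limma adjusted p = 0.857). Nupr1, a stress-induced nuclear protein, read 2997 and 3570 in R899X high RVSP lungs, 4390 and 4268 in R899X normal RVSP lungs, and 4081 and 4245 in control lungs. Both R899X high RVSP mice lay below the other 4, with a difference from control of -0.35 ± 0.15 (limma adjusted p = 0.857). Cyp2b10, a cytochrome P450 of club cells, differed by -0.34 ± 0.19, with overlapping arrays, and by -0.11 without control 1. In R899X normal RVSP against control 13 were higher and 4 lower, with a median of 0.13, and Pon1, an esterase, differed by 0.44 ± 0.21, and by 0.26 without control 1. In R899X high against normal RVSP 2 were higher and 15 lower, with a median of -0.14. Nupr1 differed by -0.40 ± 0.15 (limma adjusted p = 1.0). Over all tested probe sets the corresponding medians were -0.0042, -0.00086 and 0.0081. The club list median for R899X high RVSP against control was -0.11 without control 1 and -0.014 with aligned medians. For R899X normal RVSP against control it was 0.074 and 0.20 under the same settings, and between the R899X groups it was -0.22 with aligned medians.

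Genes of goblet cells and mucus were largely dim. Of 17 on the array 8 were tested, and the goblet cell regulators Spdef and Foxa3, the goblet cell disulfide isomerase Agr2 and the calcium-activated channel regulator Clca1 were among the 9 below the filter. Of the 8 tested, 4, 5 and 5 were higher in R899X high RVSP against control, R899X normal RVSP against control and R899X high against normal RVSP, with medians of 0.011, 0.089 and 0.016, and 0 had an unadjusted limma p under 0.05. The first median was -0.0013 after quantile normalization, -0.0034 with aligned medians and 0.15 without control 1. The second was 0.14, 0.16 and 0.19 under these settings, and the third -0.062 and -0.064 under both scalings. Tff1, a trefoil peptide, differed from control by 0.36 ± 0.23 in R899X high RVSP lungs. Fcgbp, a mucus protein that binds immunoglobulin G, differed by -0.41 ± 0.25 between R899X high and normal RVSP.

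Airway defence genes gave 11 tested members, of which 0 passed. Wfdc2, a small secreted antiprotease-like protein, read 8475 and 8717 in R899X high RVSP lungs, 11083 and 9960 in R899X normal RVSP lungs, and 6012 and 8093 in control lungs. All 4 R899X mice lay above both controls, with a log2 difference of 0.45 ± 0.15 for all R899X against control (limma unadjusted p = 0.0194, adjusted p = 0.832). Without control 1 that difference was 0.23. Ltf, the iron-binding lactoferrin, went the other way, with 125 and 188 in R899X high RVSP lungs, 118 and 168 in R899X normal RVSP lungs, and 230 and 242 in control lungs, a difference of -0.63 ± 0.25 (limma adjusted p = 0.832). These were the 2 members of the list with an unadjusted p under 0.05 in that comparison, as had 1601 of all 27022 tested probe sets. All R899X arrays lay above both controls for 7.52% of tested probe sets and below both for 7.71%.

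Transcription factors that shape the airway epithelium gave 16 tested members, of which 0 passed. In R899X high RVSP against control 9 were higher and 7 lower, with a median of 0.055. Cebpd, a C/EBP family factor, differed by 0.34 ± 0.14 and Elf3, an epithelial ETS factor, by 0.55 ± 0.24 (limma unadjusted p = 0.0384 and 0.047, adjusted p = 0.857 for both). Nkx2-1, which drives secretoglobin genes in the lung, differed by 0.84 ± 0.39, and by 0.72 ± 0.39 between R899X high and normal RVSP (limma adjusted p = 0.857 and 1.0). Its difference from control was 1.27 without control 1. Without control 1 the list median was -0.046. In R899X normal RVSP against control 9 were higher and 7 lower, with a median of 0.038 and -0.064 without control 1, and Sox2, a factor of the conducting airway, differed by 0.43 ± 0.21.

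**Figure D4:**
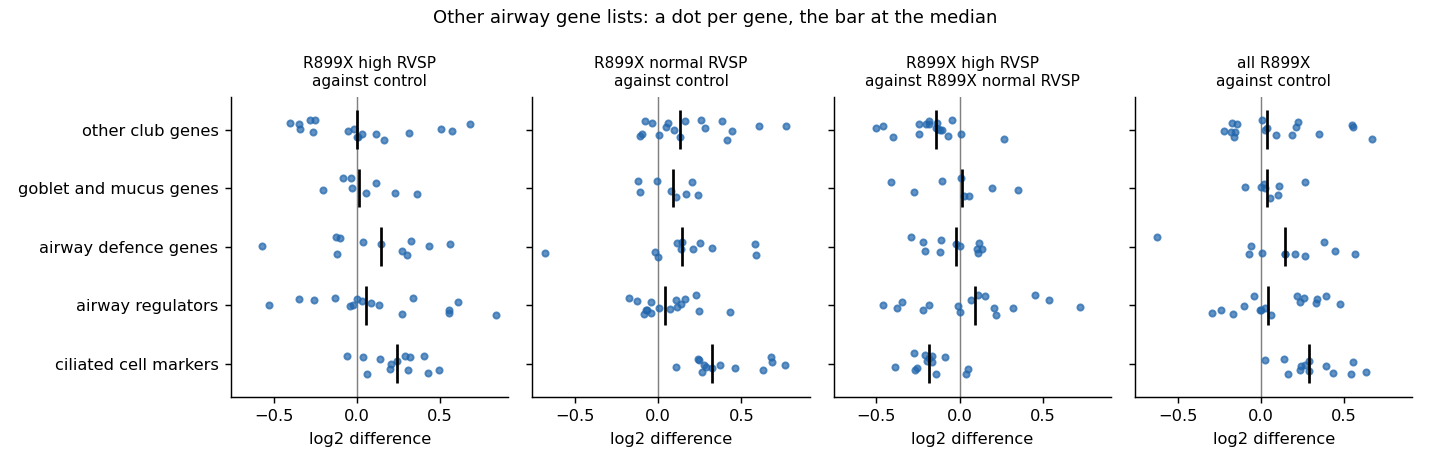
Log2 differences of single genes (dots) in 4 airway gene lists and in ciliated cell markers, a panel for each comparison, with a black bar at each list's median and positive values where the group named first is higher. Lists of secretory genes spread on both sides of 0, and ciliated cell markers lie right of 0 in all 13 tested genes for R899X normal RVSP against control, with 10 of 13 on that side and a median of 0.21 in place of 0.33 without control 1.

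Markers of other cells differed in how far they followed Muc5b and Scgb3a1 over the arrays. The summed intensity of 13 ciliated cell markers was 10087 to 11360 in R899X high RVSP lungs, 11098 to 11711 in R899X normal RVSP lungs, and 7525 to 10418 in control lungs, and 12 of the 13 were lowest on control 1, against 21.5% of all tested probe sets. Their mean deviation was -0.47 on control 1 and -0.09 on R899X high RVSP 2, the arrays where Muc5b and Scgb3a1 were low. Smooth muscle markers stood at -0.35 and -0.11 on these arrays, and endothelial markers at -0.18 and -0.0645, so the dip was not particular to airway cells. Alveolar type 1, alveolar type 2 and macrophage markers had positive mean deviations on both. The other club cell genes stood at -0.21 on control 1 and -0.018 on R899X high RVSP 2. Airway defence genes stood at -0.16 and 0.067, airway transcription factors at -0.13 and 0.10, and goblet and mucus genes at -0.0009 and 0.073. These airway lists thus dipped little or not at all on R899X high RVSP 2. Of the 17 club cell genes 9 were lowest on control 1, as were all 6 smooth muscle markers. Cartilage of the large airways was at or near background, with 7 of 8 markers below the filter, the cartilage collagen Col2a1 among them, and a highest value of 111 for any marker. Basal cell markers were below the filter for 4 of 5, and esophageal and squamous markers for 5 of 6. Cardiac muscle markers summed to 11810 and 22814 in R899X high RVSP lungs, with the lower value in R899X high RVSP 2, 24628 to 32767 in R899X normal RVSP lungs, and 24900 to 26869 in control lungs. Alveolar type 2 markers summed to 102469 to 106402 in R899X high RVSP lungs, 103934 to 106559 in R899X normal RVSP lungs, and 96406 to 124175 in control lungs, highest on control 1 as Scgb1a1 was. The beta-actin control probe sets had a 3′ to 5′ intensity ratio of 1.89 on control 1 and 1.64 on R899X normal RVSP 1, against 1.27 to 1.45 on the others, and 1.27 on R899X high RVSP 2. The same ratio of the GAPDH control probe sets ran otherwise. It was 0.973 on control 1 and 1.03 on control 2, against 0.70 to 0.875 on the R899X arrays, with 0.70 on R899X normal RVSP 1. The part of these in the member values was not tested.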

How the data were processed

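Each array's deposited intensity values came 1 to a probe set, and how they were summarised from probes is not stated in the labels or headers. Mice received heparin and their right lungs were rinsed of blood before RNA extraction, per the labels' protocols. With 2% trimmed from either tail, each array averaged 500.0, a scaling common to all. Intensities were turned into log2(intensity + 16), which understates differences of dim probe sets. Array medians spanned 0.126 on that scale, under a limit of 0.2, and the values were used without normalizing again. Tests left out 64 control and 18015 dim probe sets.

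A model with a mean for each group was fitted over the 6 arrays by limma 3.58.1 in R 4.3.3 with an intensity trend (3 residual and 5.06 prior degrees of freedom), two-sided, with Benjamini-Hochberg adjustment. The number of arrays limits the precision. The platform annotation named 1 gene for 34958 probe sets and several for 932, and did not list 9211. No gene coordinates are given from it because it names no build. A listed gene was taken from its brightest probe set, and the text names every member, listed genes that passed and otherwise those of smallest unadjusted p in a comparison, and the 5 genes of nearest profile. Bpifa5, Aldh1a7, Lyz1's probe sets, Col2a1 and the goblet cell genes below the filter were named after their values were seen. The members and lists were chosen with earlier results of these data known. Each array is an individual mouse, per the labels, and nothing pairs mice across groups.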

Additional observations from a re-analysis of the deposited data

How the results depend on the processing

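Under every alternative tried 0 member probe sets were called in the 4 comparisons. The alternatives were pseudocounts of 1 and 64, quantile normalization, aligned medians, no filter or a 20% filter, no intensity trend, an ordinary linear model, only the arrays compared, and leaving out arrays. For R899X high RVSP against control, 1 probe set of the whole array passed with only the arrays compared. Without both control 1 and R899X normal RVSP 1, whose spread then comes from R899X high RVSP alone, 313 probe sets passed for R899X high RVSP and 131 for R899X normal RVSP against control, 56 between the R899X groups, and 228 for R899X as a whole. Leaving out 1 array gave 0 to 2, 0 to 4, 0 to 43 and 0 to 6, with 43 without R899X normal RVSP 2. The lone array of a group was then assumed to vary like the others.

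The member median was taken over all 11 probe sets, 5 of them dim. It ranged with 1 array left out from -0.085 to 0.37, from 0.17 to 0.35, from -0.20 to 0.23 and from 0.082 to 0.29 in the same order of comparisons. Without both arrays it was 0.0095 for R899X high RVSP against control and 0.067 for all R899X against control, where a pseudocount of 64 gave 0.082. The cause was not tested.

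Signs of single members turned mostly with 1 array left out. For R899X high RVSP against control the ranges were -0.46 to 0.17 for Scgb1a1, -0.35 to 1.49 for Scgb3a1, -0.029 to 0.13 for Cyp2f2 and -0.68 to 1.77 for Muc5b. For R899X normal RVSP against control they were -0.34 to 0.29 for Scgb1a1 and -0.028 to 0.098 for Aldh1a1. Between the R899X groups they were -1.41 to 0.43 for Scgb3a1, -0.19 to 0.0037 for Scgb3a2, -0.26 to 0.017 for Cyp2f2 and -1.74 to 0.23 for Muc5b. For all R899X against control they were -0.40 to 0.23 for Scgb1a1, -0.30 to 2.15 for Muc5b and -0.086 to 0.016 for Aldh1a1. The Scgb3a2 difference from control stayed between 0.23 and 0.40 for all R899X, with adjusted p from 0.169 to 0.999 over all alternatives in limma or the ordinary linear model.

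Without control 1 and R899X normal RVSP 1 together, Scgb1a1 stood at 0.17, 0.23 and 0.20 for R899X high RVSP, R899X normal RVSP and all R899X against control, Muc5b at -0.68 for R899X high RVSP and -0.22 for all R899X against control, Scgb3a1 at -0.06 for R899X high RVSP against control, and Cyp2f2 at 0.017 between the R899X groups. Quantile normalization, which gives Scgb1a1 a value by its rank alone, put it at 0.030 for R899X normal RVSP and 0.015 for all R899X against control, and aligned medians put it at 0.039 for R899X normal RVSP. No paired analysis was possible because the replicate numbers follow accession order and pair no mice.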
